A study of Mus musculus with 18 samples.

Results

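The wild-type submandibular gland was compared with the wild-type stomach on 6 of the 18 Illumina bead arrays of a mouse study, 3 arrays for each organ. The arrays were chosen by their labels alone, as all those of wild-type genotype from either organ. All mice were C57BL/6 females aged 2 months, and neither group carried a modified allele. The study set wild-type mice against Car6-/- mice, which lack carbonic anhydrase VI, in the submandibular gland, the stomach and the duodenum. The series text describes 3 mice of each genotype, so the 3 arrays of an organ stand for separate animals. Whether a gland array and a stomach array with the same number came from the same mouse is not given. The labels do not say which region of the stomach was taken, or how the gland was freed of its neighbours.

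The submandibular gland is a major salivary gland. Its acinar cells secrete a primary fluid with mucins and small salivary proteins, and its ducts remove salt from that fluid. In rodents the granular convoluted tubules, a part of the duct system, store tissue kallikreins, epidermal growth factor and nerve growth factor for release. The stomach of the mouse has a glandular part, with acid-secreting parietal cells, pepsinogen-secreting chief cells, mucous cells and hormone cells, and a non-glandular forestomach lined by stratified squamous epithelium, all wrapped in smooth muscle.

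Each array carried 25697 probes, of which 23971 were named with 16584 gene symbols. A probe counted as detected on an array where its detection p-value, given with the signal, was under 0.01. Detected probes numbered from 7868 to 9613 on the gland arrays and from 10585 to 11441 on the stomach arrays. Levels are given as normalized log2 signals, for which 80% of the genes and probes undetected on all 3 arrays of an organ had a mean between 4.43 and 5.38 there. Correlations between arrays, over the genes and unnamed probes tested below, were 0.976 to 0.978 within the gland and 0.942 to 0.979 within the stomach. Between the organs they were 0.701 to 0.727. The number of arrays limits the precision of every value. The probe with the highest mean stood for its gene, and levels of different genes were not compared with each other.

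Genes higher in either organ were similar in number, but many more were detected in the stomach alone. Detection on 3 or more of the 6 arrays left 8369 genes and unnamed probes to test, and 3754 (44.9%) differed at an adjusted p under 0.05 (limma, Benjamini-Hochberg). Of these, 1756 (21%) were higher in the gland and 1998 (23.9%) were higher in the stomach. A difference of at least 4-fold was reached by 9.14%, namely by 265 in the gland's favour (3.17%) and by 500 in the stomach's favour (5.97%). The median difference over everything tested was 0.01 on the log2 scale, as gland minus stomach. The gland took 46.8% of the calls after quantile normalization, but 58.4% after median scaling and 60.6% after upper-quartile scaling, which moved the median of all genes by 0.14 and 0.18. The levels of the 3 gland arrays and the 3 stomach arrays did not overlap for 4763 (56.9%). On all 3 gland arrays but no stomach array, 111 were detected (1.33%), and 1000 (11.9%) were detected on all 3 stomach arrays but no gland array. A gene that entered the test only through the organ where it is high had to differ, so the counts over gene lists that follow describe the tested members and are no test of the list. In whole organs, a larger number of cells of a type and more RNA per cell cannot be told apart.

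**Figure D1:**
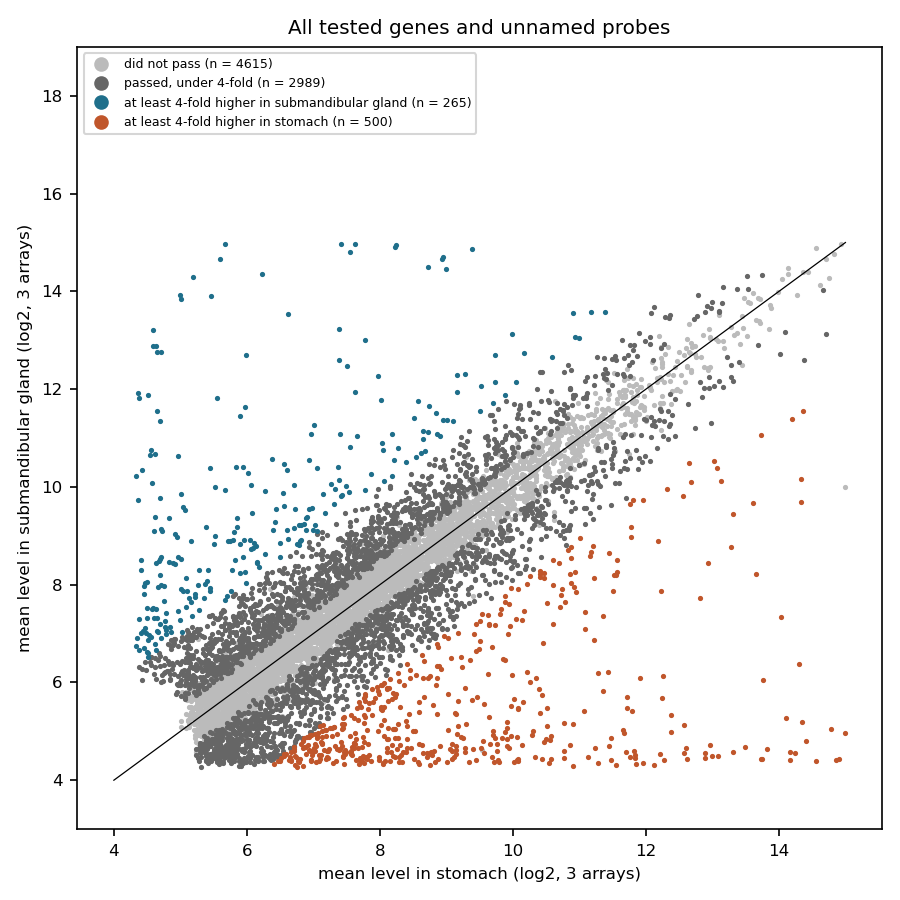
Mean normalized log2 level of each tested gene or unnamed probe in the wild-type stomach (horizontal) and the wild-type submandibular gland (vertical), 3 arrays each. The line marks equal levels, blue points are the 265 calls of at least 4-fold in the gland's favour and orange points the 500 in the stomach's favour, many of which lie along the bottom at the gland's background.

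The promoters of 5 secreted proteins that differed between the organs are shown first, because 11 of the 12 tested submandibular kallikrein genes share a short A/T motif in the window around the gene start. The sequences are RefSeq's, on build GRCm38.p6, and run from 250 bases before to 50 bases after the annotated gene start. Capitals mark TTTAAA in the kallikreins and TATAAA, the usual letters of a TATA box, in the stomach genes. All 5 genes lie on the plus strand. The windows are chr7:44012428-44012727 for Klk1b26, chr7:43950416-43950715 for Klk1b8, chr7:44225110-44225409 for Klk1, chr17:47726592-47726891 for Pgc and chr6:87373115-87373414 for Gkn2.
Klk1b26: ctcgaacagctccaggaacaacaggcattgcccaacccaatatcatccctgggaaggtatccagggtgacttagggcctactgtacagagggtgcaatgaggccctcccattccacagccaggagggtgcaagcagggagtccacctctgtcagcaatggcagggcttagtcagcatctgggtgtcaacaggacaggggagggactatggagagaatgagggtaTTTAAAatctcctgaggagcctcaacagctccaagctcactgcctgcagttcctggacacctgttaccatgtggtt
Klk1b8: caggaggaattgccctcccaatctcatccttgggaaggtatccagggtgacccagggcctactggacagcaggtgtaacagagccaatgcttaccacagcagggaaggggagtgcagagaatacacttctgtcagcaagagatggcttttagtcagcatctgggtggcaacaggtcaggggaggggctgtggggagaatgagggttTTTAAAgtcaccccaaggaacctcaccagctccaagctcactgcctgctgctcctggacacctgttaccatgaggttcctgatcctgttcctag
Klk1: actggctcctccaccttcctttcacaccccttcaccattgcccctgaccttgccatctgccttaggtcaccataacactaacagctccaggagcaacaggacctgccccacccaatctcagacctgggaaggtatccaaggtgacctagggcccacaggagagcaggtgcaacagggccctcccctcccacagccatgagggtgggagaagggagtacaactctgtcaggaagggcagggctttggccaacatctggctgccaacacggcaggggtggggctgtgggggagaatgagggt
Pgc: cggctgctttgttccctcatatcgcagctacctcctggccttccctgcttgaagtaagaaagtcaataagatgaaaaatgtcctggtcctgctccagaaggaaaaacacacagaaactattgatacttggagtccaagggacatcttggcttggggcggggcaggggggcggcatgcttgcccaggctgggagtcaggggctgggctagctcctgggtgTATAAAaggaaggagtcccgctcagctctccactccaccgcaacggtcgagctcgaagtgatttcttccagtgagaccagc
Gkn2: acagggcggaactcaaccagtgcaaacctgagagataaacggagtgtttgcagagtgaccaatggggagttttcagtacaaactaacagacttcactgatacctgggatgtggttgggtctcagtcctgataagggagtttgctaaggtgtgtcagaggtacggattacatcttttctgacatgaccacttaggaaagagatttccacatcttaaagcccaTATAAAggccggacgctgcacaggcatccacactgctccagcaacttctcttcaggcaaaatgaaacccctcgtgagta

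The letters TTTAAA, which read the same on both strands, occurred in the windows of 11 of 12 tested kallikreins (91.7%) and of 4021 of 27025 genes in the RefSeq table (14.9%). In 10 of these 11 they began 17 to 44 bases before the annotated gene start, at 26 bases in Klk1b26 and 44 bases in Klk1b8, and in Klk1b21 they began 4 bases after it. The exception was Klk1, whose window ends with gagaatgagggt. Those 12 letters also occur in 7 of the other 11 kallikrein windows, with 0 or 1 base between them and TTTAAA, so that the Klk1 window stops short of the place where the motif stands in those 7. The letters TATAAA, searched on both strands and distinct from TTTAAA, occurred in 0 of the 12 kallikreins, against 4234 of all 27025 genes (15.7%). Among the salivary secreted proteins described below, 7 of the 16 genes with a window held TATAAA (43.8%), and among the genes of squamous epithelium 11 of 26 did (42.3%). The counts were 3 of 8 for chief cell genes, 3 of 9 for pancreatic acinar genes, 5 of 16 for parietal cell genes, 3 of 12 for gastric mucous genes and 0 of 16 for salivary fluid and ion transport. In Pgc the match began 31 bases before the start and in Gkn2 29 bases before it. A match of letters is a description and not a binding site, and the kallikreins are copies of each other and share much of this sequence.

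The tissue kallikreins, a family of serine proteases that cut kininogen, growth factor precursors and other secreted proteins, had the highest median difference of the gene lists in the gland's favour. All 12 kallikreins on the array were tested, and all 12 were higher in the gland by at least 4-fold, with a median log2 difference of 7.40, or 5.77 over the members that all 6 arrays detected. Klk1b26 had levels of 14.94, 14.97 and 15.02 on the 3 gland arrays and of 7.82, 4.63 and 4.54 on the stomach arrays. The groups were far apart, although the first stomach array detected the gene and the other stomach arrays did not. The fitted log2 difference was 9.31 (SE 0.77, adjusted p = 3.87e-05), a size that depends on the 2 stomach signals at background.

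Klk1, the true tissue kallikrein that releases kinins and is also made in other organs, reached 14.53, 14.46 and 14.50 in the gland and 8.92, 7.0 and 10.25 in the stomach. It was detected on all 6 arrays and its stomach levels spread widely without reaching those of the gland. The difference was 54.7-fold (SE 0.68 on the log2 scale, adjusted p = 0.000278). Klk1b27 and Klk1b5 were also detected on all 6 arrays, with differences of 102-fold and 52.9-fold. Klk1b11 and Klk1b22, the latter an epidermal growth factor-binding protein, were detected on 1 stomach array each. Their fitted log2 differences of 9.10 and 8.93 likewise depend on signals at background on the other stomach arrays.

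The other 6 kallikreins were not detected on any stomach array, so only a lower bound of the fold can be given. It sets the mean signal of the organ that expressed the gene, normalized without background subtraction, against that of the other organ, with every undetected signal raised to the lowest detected signal of its array. On this basis Klk1b8 was at least 117-fold higher in the gland, where it had levels of 13.65, 13.43 and 12.56. Klk1b1, Klk1b9 and Klk1b21 were at least 48.5, 46.8 and 45-fold higher, Klk1b24 at least 16.7-fold and Klk1b16 at least 11.1-fold. With these 6 genes at their bounds, the median log2 difference of the family was 5.75. In each of these 6 genes the third gland array was the lowest of the 3, and all gland arrays lay above all stomach arrays. Near-identical family members may share signal on these probes, so the value of a single kallikrein is uncertain.

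Egf, the growth factor that the tubules release into saliva, had levels of 11.62, 10.91 and 10.63 in the gland and 8.39, 7.59 and 7.0 in the stomach. All 6 arrays detected it without overlap, and it was 10.5-fold higher in the gland (SE 0.38 on the log2 scale, adjusted p = 0.000212). Of the 9 growth factors tested, 4 were higher in the gland, 1 was higher in the stomach and 4 did not pass, with a median of 0.27. The fibroblast growth factors Fgf10, Fgf1 and Fgf7, which act on gland epithelium during branching, were higher by 5.61-fold, 3.34-fold and 2.22-fold. Btc, betacellulin, another ligand of the epidermal growth factor receptor, was 4.22-fold higher in the stomach.

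Bglap, osteocalcin, known from bone, was among the 12 genes detected in both organs with the largest difference. Its levels were 11.44, 11.94 and 11.53 in the gland and 5.36, 6.07 and 6.48 in the stomach, a difference of 50.9-fold (adjusted p = 2.8e-06), and its close copies may share the probe's signal. Wfdc12, a small protease inhibitor with a whey acidic protein domain, had levels of 15.07, 15.07 and 14.80 against 8.40, 5.80 and 8.03. It was 189.6-fold higher in the gland (adjusted p = 2.76e-05). Sval2, a seminal vesicle antigen-like gene related to Pip, was at least 15.3-fold higher in the gland, and Csprs was at least 32.4-fold higher, neither being detected in the stomach.

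Secreted proteins of saliva were the second group. Of 29 listed genes on the array 19 were tested, 17 were higher in the gland and 2 were higher in the stomach, with a median log2 difference of 5.46, or 4.58 with undetected genes at their bounds. The median was 4.30 without the third stomach array and 6.10 without the first. Smgc, submandibular gland protein C, a secretory product of the gland, had levels of 13.81, 13.81 and 13.92 in the gland and 6.20, 4.44 and 4.41 in the stomach. The gland arrays differed from each other by little and the stomach was close to background on all but the first array. The log2 difference was 8.83 (SE 0.44, adjusted p = 2.31e-06), but another kept probe of Smgc gave 1.89. The Smgc and Muc19 transcripts come from the same locus, so probes there may not measure Smgc alone.

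Several of the smallest secreted proteins were also seen in the stomach, chiefly on its first array. Prol1, a proline-rich salivary protein, stood at 15.02, 15.02 and 14.84 in the gland and at 12.12, 6.13 and 4.61 in the stomach. Pip, the prolactin-inducible protein of saliva and tears, had levels of 14.80, 14.82 and 14.82 against 10.82, 6.88 and 4.97. For the androgen-binding protein Scgb1b27 the levels were 14.97, 14.93 and 14.94 against 12.11, 8.09 and 4.53. In each case the first stomach array was the highest of its group and still lay under the gland. These 3 genes were higher in the gland by 162-fold, 152-fold and 104-fold (adjusted p = 0.00714, 0.0019 and 0.00878). Mucl2, a mucin-like protein, was 279.7-fold higher, and the secretoglobins Scgb2b26 and Scgb2b27 were 44-fold and 44.6-fold higher.

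The summed signal of the 29 salivary genes was 25125 on the first stomach array, against 5594 and 6375 on the others and 191614 to 300379 on the gland arrays. Of the 29 genes, 15, 13 and 10 were detected on the 3 stomach arrays. The 12 kallikreins had 6, 3 and 3 members detected on the stomach arrays, with summed signals of 2254, 599 and 2860. Klk1b26, Klk1b11, Klk1b22 and Smgc were detected on the first stomach array and on no other stomach array. Fxyd2, Cldn3, Lpo and Klk1b8 were not detected on the first stomach array. Their mean gland levels were 12.89, 10.08, 10.75 and 13.21. Those of Klk1b26, Klk1b11, Klk1b22 and Smgc were 14.98, 14.29, 13.93 and 13.84, and these levels do not rank the genes. Without the first stomach array the log2 differences grew from 7.34 to 9.68 for Prol1, from 7.25 to 8.99 for Pip, from 6.71 to 8.75 for Scgb1b27, from 8.13 to 9.31 for Mucl2, from 5.46 to 6.83 for Scgb2b26 and from 5.48 to 7.22 for Scgb2b27. What gave the first stomach array its salivary signal was not tested.

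Lpo, lactoperoxidase, an antibacterial enzyme of saliva, was at least 21.7-fold higher in the gland, with levels of 10.64, 10.54 and 11.07 there and no detection in the stomach. Folr1, a folate receptor, was at least 7.37-fold higher. Bpifa2, the parotid secretory protein that binds lipopolysaccharide, had levels of 8.39, 14.86 and 14.86 in the gland and 6.92, 5.23 and 5.82 in the stomach. The first gland array stood far below the other gland arrays, yet above every stomach array. The difference was 105-fold (SE 1.56 on the log2 scale, adjusted p = 0.00913), and without the first gland array the log2 difference of Bpifa2 went from 6.71 to 8.80.

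The same gland array was low for Dcpp1 and Amy1. Dcpp1, a demilune cell and parotid protein, had levels of 6.75, 14.30 and 13.58 in the gland, was not detected in the stomach and was at least 41.6-fold higher in the gland. Its adjusted p was 0.0117, and 0.0569 without the filter on dim probes. Amy1, salivary amylase, had levels of 6.23, 13.07 and 11.55 in the gland and 6.32, 5.96 and 5.76 in the stomach. The first gland array lay within the stomach range, and the adjusted p of 0.0452 rose to between 0.0501 and 0.145 under 8 of the alternatives. Summed over 16 genes typical of the parotid gland, the signal was 75162 on the first gland array and 151183 and 118855 on the others, and 9, 13 and 13 of the genes were detected. Over 10 genes typical of sublingual mucous cells it was 15810 on the first gland array and 50283 and 69858 on the others, with 4, 6 and 6 detected. The sublingual and parotid glands lie beside the submandibular gland, and their part in these values was not tested.

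The exceptions among the secreted proteins were Ltf and Dmbt1. Ltf, the iron-binding protein lactoferrin, had levels of 9.52, 8.65 and 9.66 in the stomach and was not detected in the gland, a difference of at least 6.37-fold. Dmbt1, a mucosal scavenger receptor protein that salivary glands secrete in humans, had levels of 8.04, 8.25 and 9.97 in the stomach and was at least 4.63-fold higher there.

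**Figure D2:**
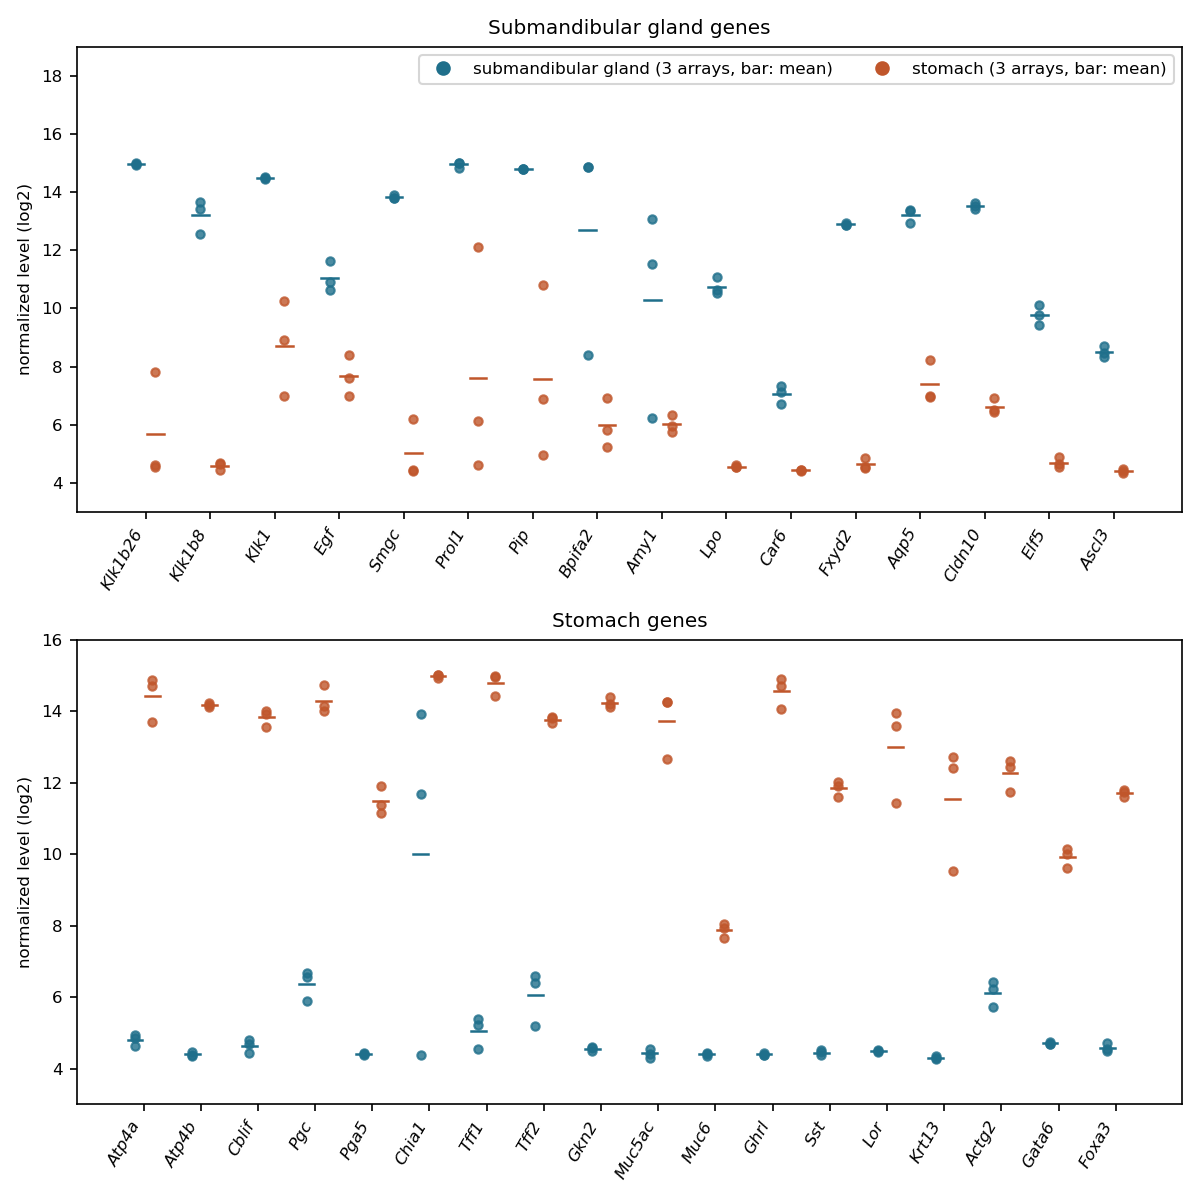
Normalized log2 level on each of the 3 submandibular gland arrays (blue) and 3 stomach arrays (orange), with the mean as a bar. Genes described with the gland are at the top and those described with the stomach at the bottom, where Chia1 did not pass. Amy1, Bpifa2 and Chia1 show a first gland array far from the others, and Prol1 and Pip show a high first stomach array.

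Transport of salt and water in the gland gave the third group. Of 20 tested genes of salivary fluid and ion transport, 14 were higher in the gland, 1 was higher in the stomach and 5 did not pass, with a median of 1.84 that became 0.91 without the filter on dim probes. Fxyd2, the gamma subunit that regulates the sodium pump, had levels of 12.87, 12.86 and 12.94 in the gland and 4.84, 4.53 and 4.52 in the stomach. The gland arrays were close together, no stomach array detected the gene, and the difference was at least 93.7-fold (adjusted p = 2.24e-08), although another kept probe of Fxyd2 gave a log2 difference of 2.12. Aqp5, the water channel of the acinar apical membrane, had levels of 13.34, 12.96 and 13.37 against 6.94, 6.99 and 8.24 and was 57-fold higher (adjusted p = 5.82e-06).

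The sodium channel of the ducts was split by subunit. Scnn1b and Scnn1g were 13.4-fold and 5.8-fold higher in the gland, while Scnn1a did not pass, with a log2 difference of -0.20. Kcnn4, the calcium-activated potassium channel that acinar cells open during secretion, was 15.1-fold higher, with levels of 10.61, 10.20 and 10.63 against 6.20, 6.59 and 6.89. Bsnd, barttin, a subunit of chloride channels, was at least 7.38-fold higher. The chloride pathway was also higher through Slc12a2, the sodium, potassium and chloride cotransporter (2.23-fold), Ano1, the calcium-activated chloride channel (2.19-fold), and Cftr (3.9-fold). Chrm3, the muscarinic receptor that starts fluid secretion, was 3.29-fold higher, and Itpr3, a calcium release channel downstream of it, was 4.45-fold higher in the stomach.

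Transcription factors known from salivary glands lay mostly on the gland's side. Of 14 tested, 11 were higher in the gland, 2 were higher in the stomach and 1 did not pass, with a median of 2.37, or 1.80 with undetected genes at their bounds and 1.21 without the filter on dim probes. Elf5, an ETS factor of duct and mammary epithelium, had levels of 9.45, 9.77 and 10.12 in the gland and was at least 11.4-fold higher than in the stomach, where it was not detected. Foxc1, a forkhead factor of gland development, and Ascl3, which marks a class of duct progenitors, were at least 7.05-fold and 5.09-fold higher. Etv1 and Foxi1 were at least 2.42-fold and 1.5-fold higher. Bhlha15, also called Mist1, which drives the secretory state of salivary acinar and gastric chief cells, had levels of 12.05, 11.89 and 12.49 against 10.79, 9.77 and 8.63 and was 5.33-fold higher in the gland. Nkx2-3 was 2.49-fold higher in the stomach (adjusted p = 0.0203), a call that was lost without the filter on dim probes and without gland array 1 or 2 or stomach array 2 (adjusted p from 0.0525 to 0.0807).

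The machinery that folds and exports secretory proteins was higher in the gland in every gene of the list that passed. Of 40 tested genes, 23 were higher in the gland, 0 were higher in the stomach and 17 did not pass, with a median of 0.91. At an unadjusted p under 0.05 in the same limma fit, 26 were higher in the gland and 1 was higher in the stomach. Derl3, which draws misfolded proteins out of the endoplasmic reticulum, had levels of 9.95, 9.95 and 9.88 in the gland and 5.97, 5.75 and 5.29 in the stomach and was 19.1-fold higher (adjusted p = 1.84e-06). Fkbp11, a secretory prolyl isomerase, was 7.83-fold higher, with levels of 12.70, 12.71 and 12.70 against 9.49, 9.64 and 10.07. Smaller differences were found for the translocon subunit Sec61b (3.54-fold) and the retrieval receptor Kdelr3 (3.21-fold). Hsp90b1, the chaperone GRP94, gave -0.53 (SE 0.22) and did not pass.

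On the stomach's side, genes of the acid-secreting parietal cell were mostly higher. Of 22 tested genes 18 were higher in the stomach, 2 were higher in the gland and 2 did not pass, with a median log2 difference of -3.83, or -2.47 with undetected genes at their bounds and -2.83 without the filter on dim probes. The proton pump subunits Atp4a and Atp4b had levels of 14.69, 14.86 and 13.68 and of 14.23, 14.11 and 14.18 in the stomach. Neither was detected in the gland, and they were at least 206-fold and 175-fold higher in the stomach (adjusted p = 1.87e-07 and 1.06e-08). Cblif, the intrinsic factor that binds vitamin B12, was at least 137-fold higher, and it stood in the list of chief cell genes as well.

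The ion channels and exchangers that serve the pump were higher too. Clic6, a chloride intracellular channel protein, was detected on all 6 arrays with levels of 14.40, 14.18 and 13.51 in the stomach and 7.52, 7.20 and 7.31 in the gland, a difference of 103-fold (adjusted p = 4.48e-07). Kcne2, the potassium channel subunit that returns potassium to the pump, was at least 8.67-fold higher. The basolateral anion exchanger Slc4a2 was 22.7-fold higher, with levels of 13.18, 12.81 and 12.83 against 8.48, 8.40 and 8.43, and the apical chloride transporter Slc26a9 was at least 4.3-fold higher. Ckb, the brain-type creatine kinase that buffers ATP, was 24.8-fold higher. Receptors that switch on acid secretion were nearer to the detection limit: the gastrin receptor Cckbr and the histamine receptor Hrh2 were at least 1.86-fold and 1.97-fold higher. The exceptions were Chrm3 and the mitochondrial regulator Ppargc1a, which were 3.29-fold and 2.2-fold higher in the gland. The call on Ppargc1a was lost without gland array 1 or without gland array 3 (adjusted p = 0.0516 and 0.0553).

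Chief cell genes were mostly higher in the stomach. Of 13 tested, 8 were higher there, 2 were higher in the gland and 3 did not pass, with a median of -5.0, or -4.77 with bounds. The median was -6.90 without gland array 2, -5.78 without gland array 3, -6.97 with array weights and -3.77 under upper-quartile scaling. Over the genes of this list that all 6 arrays detected, the median was 0.32, since most of its members were not detected in the gland. Pgc, pepsinogen C, had levels of 14.15, 14.74 and 14 in the stomach and 5.90, 6.69 and 6.55 in the gland. It was detected on all 6 arrays and was 242-fold higher in the stomach (SE 0.28 on the log2 scale, adjusted p = 3.24e-07). Pga5, another pepsinogen, and Ctse, cathepsin E, were at least 27.3-fold and 197-fold higher.

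Chia1, the acidic chitinase that chief cells secrete, did not pass because the gland arrays disagreed. The levels were 14.93, 15.02 and 15.02 in the stomach and 4.37, 13.93 and 11.68 in the gland. Gland arrays 2 and 3 held it at a high level and gland array 1 did not detect it. The same array was the lowest of the gland for Amy1 and Dcpp1, although it detected both. The log2 difference was -5.0 (SE 2.04, adjusted p = 0.0783), and without gland array 1 it was -2.09 with an adjusted p of 0.0283.

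Genes of the mucous cells of the stomach surface and glands were mostly higher in the stomach. Of 19 tested genes 16 were higher in the stomach, 2 were higher in the gland and 1 did not pass, with a median of -7.39, or -6.36 with bounds. The median was -3.69 without the filter on dim probes and -0.76 over the genes that all 6 arrays detected. Tff1, the trefoil peptide of the surface mucous cells, had levels of 14.97, 14.94 and 14.43 in the stomach and was not detected in the gland, a difference of at least 266-fold. Tff2, the trefoil peptide of the neck cells, had levels of 13.65, 13.82 and 13.79 against 6.38, 6.60 and 5.18, was detected on 2 gland arrays, and was 208-fold higher (adjusted p = 1.35e-06). The gastrokines Gkn1 and Gkn2, secreted by surface cells, were at least 129-fold and 183-fold higher.

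Mucin genes split between the organs. Muc5ac, the surface mucin, and Muc1, a membrane mucin, were at least 129-fold and 50.9-fold higher in the stomach. Muc6, the gland mucin of the stomach, had levels of 7.65, 8.04 and 7.93 and a bound of only 2.7-fold. In the opposite direction, the membrane mucin Muc13 had levels of 8.70, 8.40 and 8.24 in the gland, was not detected in the stomach and was at least 4.92-fold higher in the gland. Psca, a surface protein of gastric epithelium, and Mucl3 were at least 167-fold and 282-fold higher in the stomach.

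Hormone genes were found on the stomach's side. Of 12 tested genes of gastric endocrine cells, 10 were higher in the stomach, 0 were higher in the gland, also at an unadjusted limma p under 0.05, and 2 did not pass. The median was -2.74, or -1.49 with bounds, and -0.41 without the filter on dim probes, which removes 16 of the 28 genes on the array. Ghrl, which encodes ghrelin, had levels of 14.05, 14.70 and 14.90 and was at least 227-fold higher (adjusted p = 3.09e-08). Sst, somatostatin, had levels of 12.03, 11.89 and 11.59 and was at least 35-fold higher. Hdc, the histamine-forming enzyme, and Chga, chromogranin A of secretory granules, were at least 10.01-fold and 6.91-fold higher. Gcg, proglucagon, was closer to background with a bound of 1.72-fold. The probe for Gast, gastrin, which antral G cells make, was not detected on any of the 6 arrays.

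Squamous epithelium was a further stomach group, and it varied between the stomach arrays. Of 38 tested genes 31 were higher in the stomach, 0 were higher in the gland, also at an unadjusted limma p under 0.05, and 7 did not pass. The median was -3.42, or -2.01 with bounds, -4.14 without the second stomach array and -0.82 over the genes that all 6 arrays detected. Lor, loricrin of the cornified envelope, had levels of 13.96, 11.42 and 13.58 in the stomach and was at least 77.1-fold higher. Krt13, the keratin of moist squamous surfaces, had levels of 12.71, 9.52 and 12.42 and Rptn, repetin, had 11.41, 8.85 and 11.38. They were at least 29.1-fold and 14.8-fold higher, and the second stomach array was the lowest of its group for all 3 genes.

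The summed signal of the 49 squamous genes on the array was 35908 on the second stomach array and 100065 and 96731 on the other stomach arrays, against 4829 to 5603 in the gland. Basal keratins overlapped between the organs. Krt5, which forms basal cell filaments with Krt14, had levels of 6.79, 6.61 and 6.61 in the gland and 8.80, 6.29 and 9.29 in the stomach, with an adjusted p of 0.112. Without the second stomach array its log2 difference was -2.37 (adjusted p = 0.000166), and that of Krt14 went from -0.55 to -1.47 (adjusted p = 0.00429). The share of forestomach in the tissue was not measured.

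The muscle coat of the stomach was visible in 16 of 17 tested smooth muscle genes, which were higher there, with a median of -2.11. Actg2, the enteric smooth muscle actin, had levels of 12.44, 11.73 and 12.60 in the stomach and 5.73, 6.23 and 6.42 in the gland and was 70.2-fold higher (adjusted p = 1.41e-06). Des, the intermediate filament desmin, was 34-fold higher and Fhl1, a LIM protein of muscle, was 56.8-fold higher. Acta2, smooth muscle actin, which myoepithelial cells of the gland also make, differed by only 3.02-fold, with levels of 14.90, 14.43 and 14.82 against 13.26, 13.18 and 12.93. The remaining gene of the list, the small heat shock protein Hspb8, was 3.58-fold higher in the gland. Of 9 tested genes of enteric neurons, glia and pacemaker cells 7 were higher in the stomach, among them the neuropeptides Cartpt, Npy and Vip with bounds of 1.66, 1.22 and 1.17-fold. Ret, the receptor of glial cell line-derived neurotrophic factor, was 6.65-fold higher in the gland.

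Regional transcription factors of the gut lay mostly on the stomach's side. Of 20 tested, 16 were higher in the stomach, 1 was higher in the gland and 3 did not pass, with a median of -2.14, or -1.18 with bounds and -0.63 without the filter on dim probes. Foxa3, a forkhead factor of endoderm, had levels of 11.59, 11.80 and 11.73 in the stomach and was at least 31.9-fold higher (adjusted p = 2.84e-08). Gata6, Gata5 and Gata4, zinc finger factors of the gut tube, were at least 9.61, 1.89 and 1.18-fold higher. The mesenchymal factors Tcf21 and Hoxa5 were at least 2.88-fold and 2.46-fold higher, and Barx1, which specifies stomach mesenchyme, was 4.45-fold higher with detection on 1 gland array. Hnf4a, a nuclear receptor of gut and liver epithelium, was at least 2.44-fold higher. The homeobox factor Meis1 went the other way and was 2.85-fold higher in the gland.

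Enzymes that handle xenobiotics and retinoids differed gene by gene. Of 37 tested 18 were higher in the stomach, 8 were higher in the gland and 11 did not pass, with a median of -0.68. The sulfotransferase Sult1c2 and the glutathione transferases Gsta1 and Gsta2 were at least 82, 71.9 and 57.8-fold higher in the stomach. Gsta1 and Gsta2 are close copies and may share signal. Adh7, the retinol and alcohol dehydrogenase of the upper digestive tract, was at least 57.8-fold higher, and Aldh3a1, an aldehyde dehydrogenase, was 33.8-fold higher with levels of 13.30, 12.84 and 12.31 against 8.68, 7.23 and 7.29. In the gland, the cytochrome P450 Cyp2f2 had levels of 13.39, 12.56 and 13.08 against 8.45, 6.49 and 8.39 and was 37.5-fold higher, and the flavin monooxygenase Fmo1 was 8.34-fold higher.

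Several other genes had large differences in the stomach's favour. Clu, the secreted chaperone clusterin, was 43.1-fold higher with levels of 13.70, 13.70 and 13.57 against 8.05, 8.13 and 8.49. Lgals4, the epithelial galectin of the gut, was 46.3-fold higher, although another kept probe of Lgals4 gave a log2 difference of -1.43. Ttr, the thyroxine carrier transthyretin, and the secretory membrane protein Scamp5 were 37.2-fold and 23.3-fold higher, although another kept probe of Scamp5 gave a log2 difference of -2.06. Apoa1, the main protein of high-density lipoprotein, was not detected in the gland and was at least 174-fold higher.

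**Figure D3:**
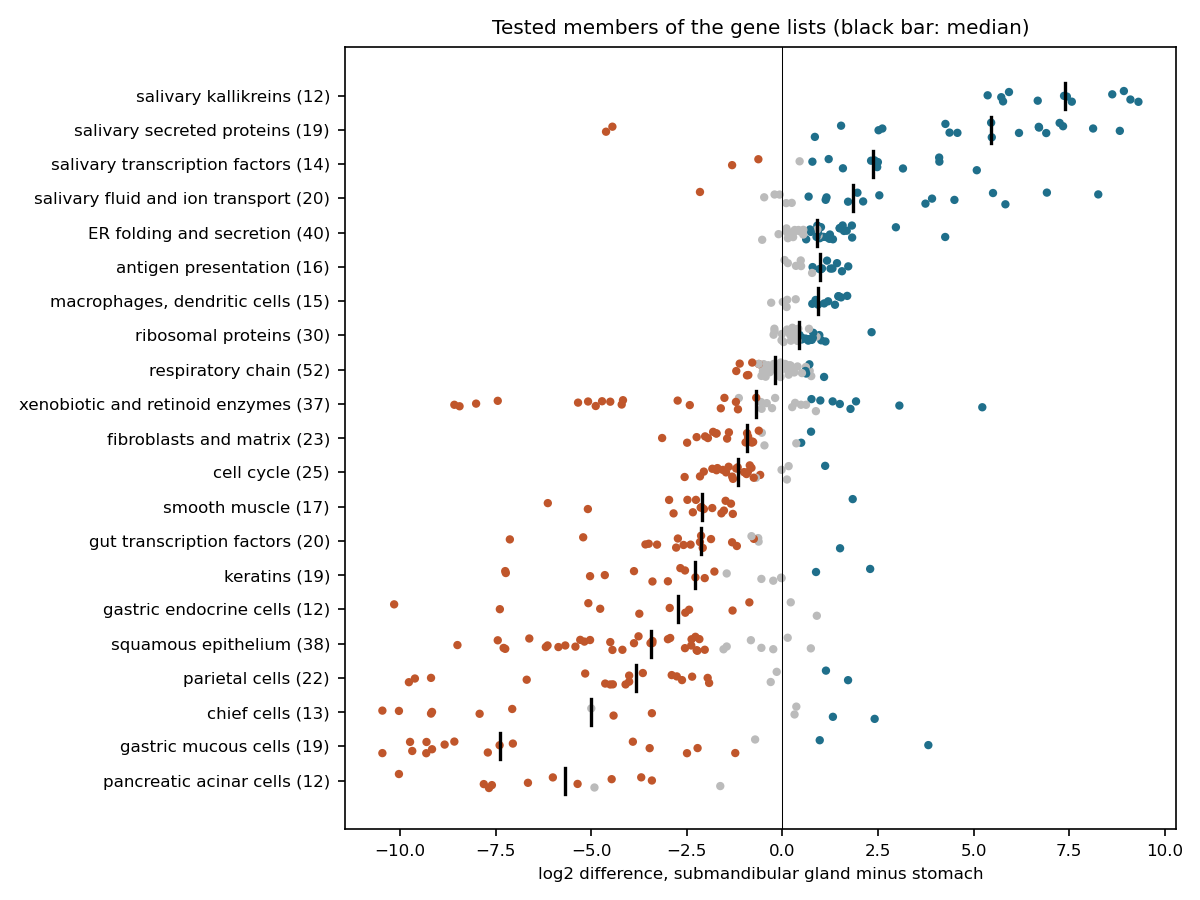
Log2 difference, submandibular gland minus stomach, of each tested member of 21 gene lists, with the number of tested members in parentheses and the list median as a black bar. Blue and orange points passed in the gland's and the stomach's favour and grey points did not pass. Kallikreins lie entirely to the right and the gastric lists mostly to the left.

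Several gene families had some members higher in the gland and others higher in the stomach. Over everything tested, 21% were higher in the gland and 23.9% in the stomach, and the carbonic anhydrase counts lay near these shares. Of 12 carbonic anhydrases on the array 10 were tested, 3 were higher in the gland, 2 were higher in the stomach and 5 did not pass, with a median of -0.31 that became 0.0014 under median scaling and 0.04 under upper-quartile scaling. Carbonic anhydrases interconvert carbon dioxide and bicarbonate. Car6, the secreted form of saliva that the study's mutants lack, had levels of 6.70, 7.12 and 7.33 in the gland and 4.45, 4.44 and 4.41 in the stomach. Every gland array detected it and no stomach array did, and it was at least 2.25-fold higher in the gland (adjusted p = 2.04e-05).

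The membrane-bound Car12 had levels of 10.34, 9.74 and 9.92 in the gland and 5.57, 4.72 and 6.27 in the stomach and was 22.3-fold higher in the gland (adjusted p = 3.66e-05). Car3, the muscle and fat form, was 6.22-fold higher in the gland, with the highest level on the first gland array (11.38, 9.63 and 8.88). The cytosolic Car2, which supplies protons in parietal cells, had levels of 11.92, 11.72 and 10.45 in the stomach against 7.44, 7.51 and 7.12 and was 16.1-fold higher there. Car9, a membrane form strongly expressed in gastric epithelium, had levels of 9.92, 10.11 and 10.40 and was at least 11.1-fold higher in the stomach (adjusted p = 2.82e-07). Car4, Car13, Car14, Car11 and Car5b gave log2 differences of -0.43, -0.32, -0.54, -0.31 and -0.07 and did not pass. Those of Car11 and Car14 turned positive under median and upper-quartile scaling.

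Of 5 tested aquaporins, Aqp5 was higher in the gland and 3 were higher in the stomach. Aqp4, of the parietal cell membrane, and Aqp3, of squamous and surface epithelium, were at least 4.96-fold and 5.38-fold higher in the stomach. Aqp11 was at least 1.2-fold higher there, a call that was lost under median and upper-quartile scaling (adjusted p = 0.0658 and 0.0880). Claudins, which set the permeability of tight junctions, split in a like manner: of 10 tested, 6 were higher in the gland, 2 were higher in the stomach and 2 did not pass, with a median of 1.14 that became 0.095 without the filter on dim probes. Cldn10, a paracellular ion channel, had levels of 13.43, 13.54 and 13.63 against 6.43, 6.50 and 6.91 and was 121-fold higher in the gland (adjusted p = 7.1e-08). Cldn4 was 18.5-fold and Cldn3 at least 13.9-fold higher in the gland, while Cldn18, the claudin of stomach epithelium, was at least 26.8-fold higher in the stomach.

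Keratins and glycosyltransferases also had members higher in each organ. Of 19 tested keratins 12 were higher in the stomach, 2 were higher in the gland and 5 did not pass, with a median of -2.27, or -0.39 over the keratins that all 6 arrays detected. Krt19 and Krt20, of simple epithelium, were at least 34.7-fold and 5.37-fold higher in the stomach, and Krt8 was 6.35-fold higher. Krt7 was 4.91-fold higher in the gland. Krt7, Krt8 and Krt19 all stood in the list of salivary duct cell genes, of which 11 were tested. In that list 6 were higher in the gland, 4 were higher in the stomach and 1 did not pass. Of 19 tested enzymes of mucin-type O-glycosylation 8 were higher in the stomach, 5 were higher in the gland and 6 did not pass, with a median of -0.55 that became 0.10 over genes detected on all 6 arrays. The stomach was higher in the chain-extending B3gnt3 (at least 5.85-fold), the fucosyltransferase Fut2 (at least 4.25-fold) and A4gnt (at least 1.31-fold), which caps the gland mucin. The gland was higher in the sialyltransferases St3gal1 (21.9-fold) and St3gal4 (12.4-fold), each detected on 1 stomach array.

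Genes of the pancreas, skeletal muscle and fat were also detected, in amounts that varied between arrays. Pancreatic acinar genes were higher in the stomach for 10 of 12 tested, with a median of -5.68, or -3.72 with bounds. The median was -4.37 without the third stomach array and -2.70 without the filter on dim probes. Of 24 such genes on the array, 13, 13 and 24 were detected on the 3 stomach arrays, with summed signals of 56665, 51417 and 122559, against 1 to 3 genes and 664 to 2134 in the gland. Clps, the lipase cofactor colipase, which also stood in the list of chief cell genes, had levels of 15.07, 15.07 and 14.84. Pnliprp2, a lipase-related protein, had 12.51, 11.81 and 11.54, so both of these genes were high on every stomach array. They were at least 308-fold and 37.8-fold higher than in the gland, and Pla2g1b, the secreted phospholipase A2, was at least 288-fold higher. Cela2a, an elastase, had levels of 7.12, 6.89 and 14.60 and was high on the third stomach array alone, with an adjusted p of 0.0548. The pancreatic genes Cpa1, Ctrl and Gp2, which the filter left untested, were detected on the third stomach array and on no other array.

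Skeletal muscle genes were also detected mainly on the third stomach array, 21 of 29 against 3 or 4 on the others and 0 or 1 in the gland. Tnni2, fast troponin I, had levels of 8.02, 8.55 and 11.16 there and was at least 6.39-fold higher in the stomach, and without the third stomach array the fitted log2 difference of Tnni2 went from -4.37 to -3.27. Fat genes were highest on the first gland array, with a summed signal of 20406 over 18 genes against 7015 to 7193 on the other gland arrays and 6716 to 10393 in the stomach. Thrsp, a regulator of fat synthesis, had levels of 10.66, 8.32 and 7.61 in the gland and 5.91, 5.45 and 6.94 in the stomach (adjusted p = 0.0163, and 0.0508 without stomach array 2). Adipoq, adiponectin, had levels of 10.45, 9.26 and 8.70 against 6.47, 7.03 and 8.91. The groups overlapped, and its adjusted p of 0.0366 became 0.121 without gland array 1. What these tissues contribute to other differences was not tested. Without both the first gland array and the third stomach array, 1641 genes and probes were higher in the gland and 1908 were higher in the stomach.

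**Figure D4:**
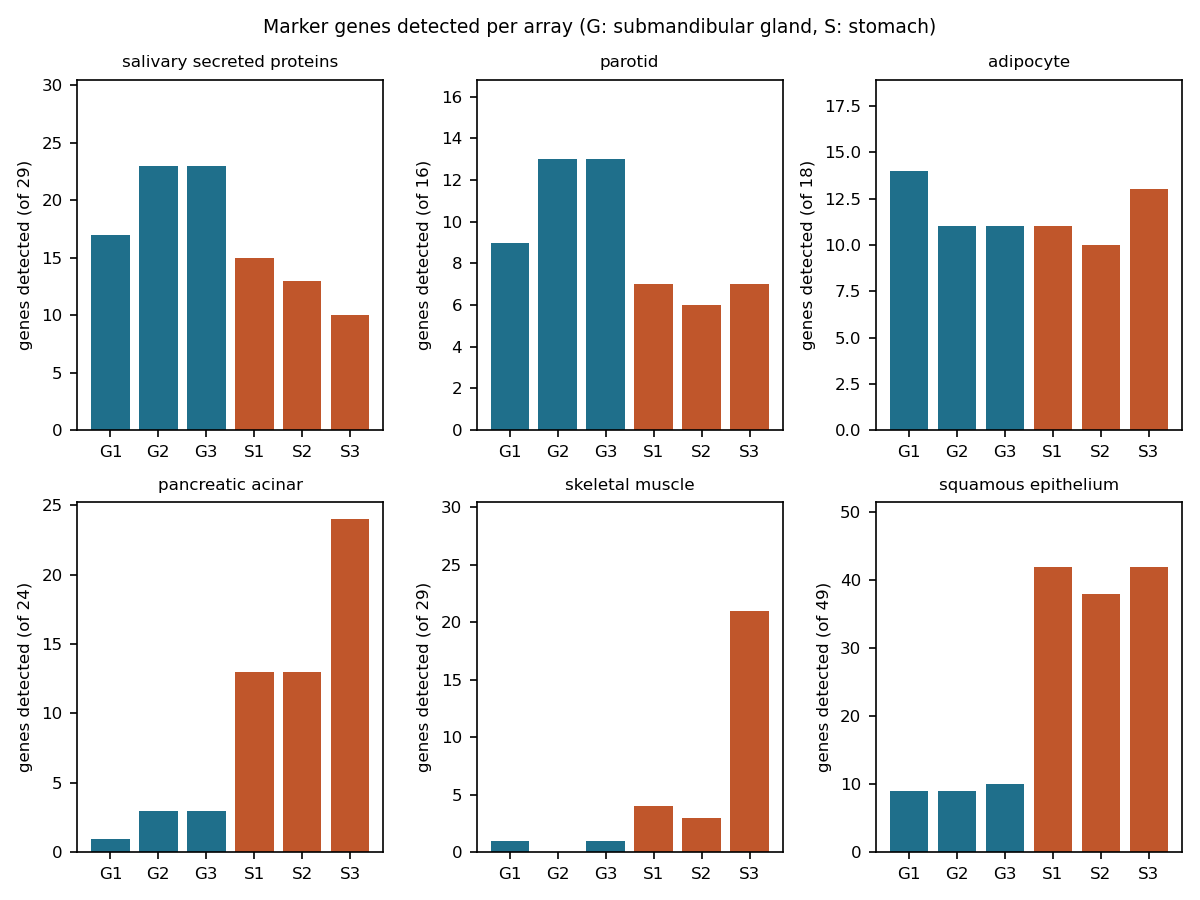
Number of marker genes detected on each array (detection p under 0.01) for 6 lists, with gland arrays as G1 to G3 in blue and stomach arrays as S1 to S3 in orange. The third stomach array detects 24 of 24 pancreatic and 21 of 29 skeletal muscle genes, and the first gland array detects fewer salivary and parotid genes than the other gland arrays.

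The comparison was repeated on the 6 arrays of Car6-/- mice, 3 for each organ, which the wild-type fit did not use. There, 28.1% of 8147 genes and probes tested were higher in the gland and 26.6% were higher in the stomach. A difference of at least 4-fold was reached by 297 in the gland's favour (3.65%) and by 528 in the stomach's favour (6.48%). Of the 265 genes and probes called at least 4-fold higher in the wild-type gland, 262 were tested in the mutants, all 262 had the same direction, 257 passed and 237 (90.5%) were again at least 4-fold higher. Of the 500 in the stomach's favour, 496 were tested, 495 had the same direction and passed, and 464 (93.5%) were again at least 4-fold higher. None was called at least 4-fold in the opposite direction.

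Log2 differences in the mutants and in wild type were 7.55 and 6.92 for Cldn10, 3.03 and 3.39 for Egf, -7.66 and -7.92 for Pgc, and -6.70 and -6.69 for Clic6. For Klk1 they were 8.22 and 5.77, and for Prol1 10.32 and 7.34. Car3 and Thrsp, whose wild-type difference was largest on the first gland array, gave 0.91 and 2.64, and 1.32 and 2.76. No test of a difference between the genotypes was made.

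**Figure D5:**
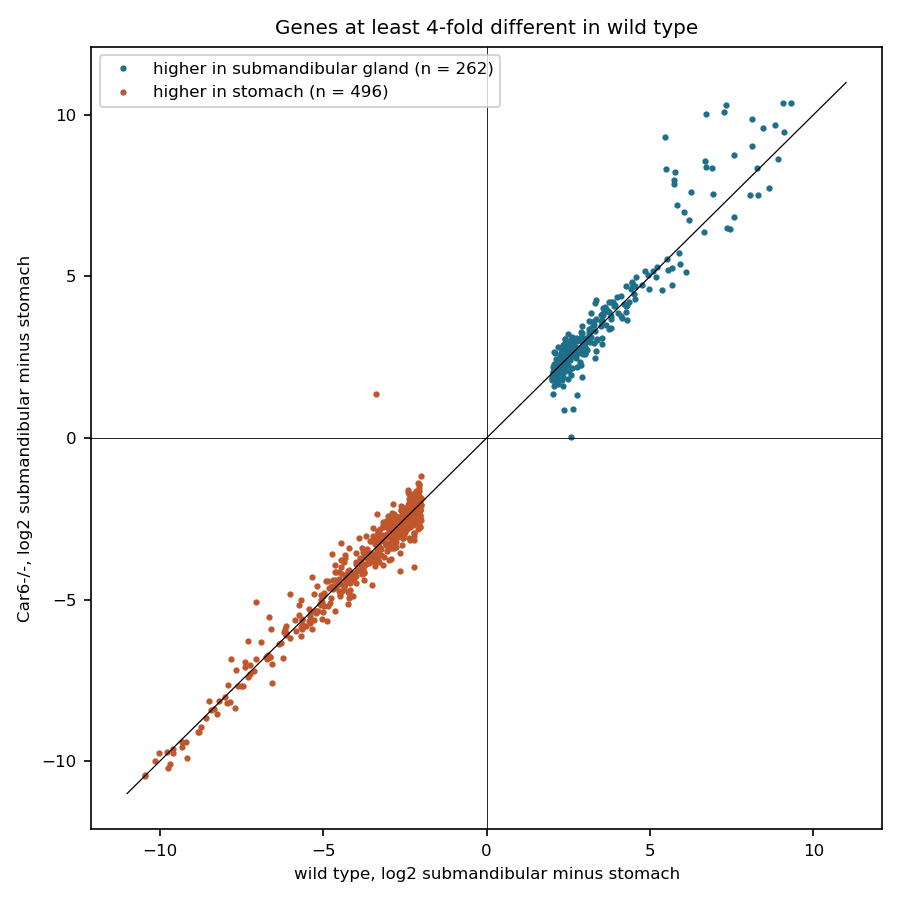
Log2 difference, submandibular gland minus stomach, in wild type (horizontal) and in Car6-/- mice (vertical) for the genes and probes that were at least 4-fold different in wild type and tested in both. The 262 points of the gland's favour and 495 of the 496 points of the stomach's favour keep their direction, and the diagonal marks equal differences.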

How the data were processed

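Total RNA of each organ was amplified, labelled and hybridized to Illumina bead arrays, per the labels' protocols. The deposited table holds the raw signal intensity of 25697 probes, linear and between 40.1 and 40788 on these 6 arrays, with a detection p-value for each probe and array. The log2 values that the authors deposited were not used for the comparison, because their medians of 6.02 on each gland array and 6.35 on each stomach array show a normalization within each organ. Which software made the deposited values is not stated.

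Background correction and quantile normalization were applied to the intensities of these 6 arrays together, with neqc (limma 3.58.1, R 4.3.3, offset 16), which takes its negative controls from the detection p-values. Probes with a detection p under 0.01 on at least 3 of 6 arrays were kept, probes were named through the platform annotation and RefSeq (GRCm38.p6), and the probe with the highest mean stood for a gene. The organs were compared with lmFit and eBayes without covariates, with Benjamini-Hochberg adjustment over all 8369 genes and unnamed probes (7777 and 592) and a threshold of 0.05. The test was run on simulated arrays with few changed probes, which cannot check the normalization between organs that differ in many genes. Alternatives were no background correction, an offset of 50, median and upper-quartile scaling, other filters, the mean of all kept probes, a fit of all 18 arrays, the replicate number as a block, array weights, and leaving out each array, where the probes of the main filter were kept. Leaving out gland array 1 and stomach array 3 together was chosen after seeing the data.

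The named genes are the 12 with the largest difference in each direction among genes detected in both organs, the 12 with the largest bound in each direction among genes detected in a single organ, up to 4 called members of each of the 44 gene lists, and all tested carbonic anhydrases. Other members of the lists were named after their values were seen. The comparison and the lists were chosen with earlier results of these data known. Of 1087 listed symbols, 955 were on the array and 630 were tested. No column of values from outside the 18 arrays of the series was used.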

Additional observations from a re-analysis of the deposited data

How the results depend on the processing

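Of 179 named genes called in the comparison, 9 lost the call under some alternative and 0 changed direction (limma throughout). A gene that an alternative left untested could not lose its call there. Detection on all 6 arrays left 67 of the 189 named genes, called or not, to test. Calls higher in the stomach numbered 953 over probes detected on all 6 arrays. Calls of at least 4-fold in the gland's favour fell to 172 without background correction and 144 over probes detected on all 6 arrays. In the stomach's favour they fell to 309 without background correction, 329 with an offset of 50 and 107 over probes detected on all 6 arrays, which leaves out every gene undetected in an organ. Calls of at least 4-fold made the same way in Car6-/- arrays, 701 in all, fell to 446 and 212 under no background correction and detection on all 6 arrays. Leaving out each array in turn gave 1312 to 1982 higher in the gland and 1584 to 2169 higher in the stomach. For calls of at least 4-fold the ranges were 247 to 284 and 471 to 519, and for those made the same way in Car6-/- arrays 668 to 711. Direction turned for Krt14 (0.88 with array weights, and -1.47 to 0.073 when single arrays were left out), Car5b (-0.421 to 0.089 over such fits), Car13 (-0.499 to 0.033), Car11 (0.055 under median and 0.089 under upper-quartile scaling) and Car14 (0.21 and 0.24 under the same scalings), none of which was called. List medians turned for the carbonic anhydrases (0.0014 and 0.036 under these scalings), the respiratory chain (0.11 and 0.14), and, over probes detected on all 6 arrays, where fewer genes are tested, the chief cell genes (0.32) and O-glycosylation (0.10). The cause of the other changes was not tested. Deviations of same-numbered gland and stomach arrays from their group means correlated at 0.116, -0.000242 and 0.0264. For arrays with different numbers these correlations ran from -0.113 to 0.0838. Such values cannot tell whether same-numbered arrays came from the same mouse, since organs of the same mouse need not deviate alike. With the replicate number as a block, 1691 were higher in the gland and 1911 in the stomach, and the calls of at least 4-fold numbered 264 and 502. Array number and signal over background limit the dim genes.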

Other observations

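Genes of antigen presentation and of macrophages and dendritic cells were higher in the gland where they passed. Of 16 tested genes of antigen presentation, 10 were higher in the gland and 6 did not pass, with a median log2 difference of 0.99 (gland minus stomach), and 0 were higher in the stomach at an adjusted or unadjusted limma p under 0.05. The class I gene H2-Q8 was 3.3-fold higher, with levels of 7.01, 6.91 and 6.89 in the gland and 4.90, 5.18 and 5.55 in the stomach, and Tapbp, tapasin, which loads peptide, was 2.95-fold higher. Of 15 tested macrophage and dendritic cell genes, 10 were higher in the gland and 5 did not pass, with a median of 0.93 and 0 higher in the stomach at an adjusted or unadjusted limma p under 0.05. Aif1, a calcium-binding protein of macrophages, had levels of 7.52, 7.80 and 8.34 against 5.63, 6.01 and 6.92 and was 3.24-fold higher. Ccl28, the mucosal chemokine that draws plasma cells, was at least 1.59-fold higher. Of 17 tested interferon response genes, 9 were higher in the gland, 1 was higher in the stomach and 7 did not pass, with a median of 0.92. Usp18, a brake on the response, was 4.1-fold higher in the gland (adjusted p = 0.0193, and 0.0563 to 0.0742 in 4 alternatives), and Oasl1, the exception, was 5.91-fold higher in the stomach. Other kept probes of Oasl1 gave log2 differences of -2.23 and -0.98.

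Dividing-cell and matrix genes lay on the stomach's side. Of 25 tested cell cycle genes 20 were higher in the stomach, 1 was higher in the gland and 4 did not pass. The median was -1.17, or -0.52 with undetected genes at their bounds. Cenpa, the centromere histone, had levels of 9.36, 9.76 and 10.06 in the stomach against 7.21, 7.15 and 7.16 and was 5.88-fold higher, and Birc5, survivin, was 4.45-fold higher. Top2a, the replication topoisomerase, was not detected in the gland and was at least 1.37-fold higher in the stomach. Ccnd1, cyclin D1, went the other way at 2.17-fold. Of 23 tested fibroblast and matrix genes 18 were higher in the stomach, 2 were higher in the gland and 3 did not pass, with a median of -0.92. Fbln1, fibulin 1, was 8.84-fold and Col1a1, a collagen I chain, 3.29-fold higher in the stomach, while Lum, lumican, was 1.68-fold higher in the gland.

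Ribosomal protein genes gave 13 of 30 higher in the gland and 17 that did not pass, with a median of 0.43 that became 1.17 under median scaling and 1.2 under upper-quartile scaling, and 0 higher in the stomach at an adjusted or unadjusted limma p under 0.05. Rpl19 was 5.04-fold higher, with levels of 10.99, 11.06 and 10.90 against 8.85, 8.54 and 8.56. Of 52 tested genes of the mitochondrial respiratory chain 4 were higher in the gland, 6 were higher in the stomach and 42 did not pass, with a median of -0.20 that became 0.11 under median scaling and 0.14 under upper-quartile scaling. Genes of the circadian clock, core and output members together, passed only in the gland's favour, 6 of 12 tested with a median of 0.68 and 0 higher in the stomach at an adjusted or unadjusted limma p under 0.05. Ciart was 3.63-fold and Nfil3 3.54-fold higher in the gland, and Dbp was 2.29-fold higher, a call lost without gland array 1 and stomach array 3 together (adjusted p = 0.0522). Immediate early genes passed only in the stomach's favour, 7 of 12 tested with a median of -0.94, or -0.24 without the filter on dim probes, and 0 higher in the gland at an adjusted or unadjusted limma p under 0.05. Fos had levels of 7.47, 8.77 and 8.31 in the stomach against 6.40, 4.90 and 5.70 and was 5.72-fold higher, and Junb was 3.2-fold higher. The hour of tissue collection is not given in the labels.

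Of 10 tested enterocyte genes, 8 were higher in the stomach and 2 were higher in the gland, with a median of -2.48, or -1.35 with undetected genes at their bounds. On the stomach's side were Apoa1 and Lgals4, described above. Dpp4, a membrane peptidase, had levels of 10.21, 9.75 and 10.15 in the gland against 6.28, 5.90 and 6.01 in the stomach and was 15.7-fold higher. Slc5a1, the sodium-dependent glucose transporter, was at least 2.11-fold higher in the gland. Pparg, known as a regulator of fat cells, had levels of 9.62, 9.85 and 9.04 in the stomach against 7.64, 6.54 and 6.37 and was 6.28-fold higher in the stomach.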
